A study of Rattus norvegicus with 6 samples.

Results

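The 3 rows described here hold miR-126, the miRNA best known as a marker of endothelial cells. They are rno-miR-126a-3p, rno-miR-126a-5p and rno-miR-126b, written below without the prefix for rat and taken by name from a deposited table of 1289 rows, of which 584 carry names of known rat miRNAs. Small RNA was sequenced from PC12, a line derived from a rat adrenal pheochromocytoma, in 6 libraries, 3 in a group labelled EC and 3 in a group labelled EN. The labels spell out neither abbreviation and name no dose, time or agent for either group, and the series title speaks of exosomes from endothelial cells engineered with Netrin-1, an axon guidance protein. All libraries come from 1 cell line, and no label says that replicates were separate cultures. The p-values therefore reflect spread among these libraries only, and that spread may be technical. Libraries held between 4521694 and 6554639 miRNA counts.

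A miRNA gene is transcribed as a longer RNA that folds into a hairpin, and Dicer cuts the hairpin into a pair of arms called 5p and 3p. One arm is usually loaded into an Argonaute protein and kept, and its seed, bases 2 to 8, pairs with target mRNAs. MiR-126 lies in the gene Egfl7, which encodes a protein secreted by endothelial cells. In blood vessels the 3p arm is known to repress Spred1 and Pik3r2, inhibitors of growth factor signalling, and Vcam1, an adhesion molecule for leukocytes. The 5p arm is known to repress Dlk1, a Notch pathway regulator. Platelets and some blood progenitor cells carry miR-126 as well.

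The mature sequences are shown because the 3 rows come from opposite strands of 1 locus, and the results below turn on how reads divide among them. All 3 were found in RefSeq (build GRCr8), and the capitals mark the seed.
miR-126a-3p: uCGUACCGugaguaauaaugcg
miR-126a-5p: cAUUAUUAcuuuugguacgcg
miR-126b: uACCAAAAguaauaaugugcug
The 3 seeds differ from each other. None of them is carried by another of the 693 mature names in the RefSeq table, also when only bases 2 to 7 are compared, so no other known row of that table shares a seed with miR-126.

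The RefSeq hairpin of 118 bases listed with miR-126b was read on the strand of miR-126a, to show where both of its arms sit. Capitals mark miR-126a-5p, at bases 33 to 53, and then miR-126a-3p, at bases 70 to 91, with 16 bases between them.
miR-126 hairpin: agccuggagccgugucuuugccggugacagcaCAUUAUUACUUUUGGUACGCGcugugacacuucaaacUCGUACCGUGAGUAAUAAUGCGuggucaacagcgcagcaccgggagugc
MiR-126b is read from the opposite strand of the 5p arm. In the next line its capitals mark the run of 17 bases, out of 22, that is complementary to miR-126a-5p.
miR-126b against 5p: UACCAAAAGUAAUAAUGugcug
With miR-126a-3p, miR-126b shares an identical run of 10 bases, in capitals here.
miR-126b against 3p: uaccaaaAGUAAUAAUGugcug
In RefSeq, the miR-126a gene of 73 bases lies wholly inside the miR-126b gene on the other strand, and Egfl7 is the 1 protein-coding gene that spans both. RefSeq's symbols are crossed, Mir126b for the gene with both miR-126a arms and Mir126a for that with miR-126b. The sources used here do not give the strand rule of the counting, so reads of both strands could have been placed in either gene.

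MiR-126a-3p was a well-measured miRNA of these PC12 libraries. Its counts were 6977, 6306 and 6952 in EC and 5697, 4608 and 5478 in EN. As CPM, counts relative to all miRNA counts of a library with TMM factors (from the trimmed mean of log ratios between libraries), these levels were 1078, 1007 and 1062 in EC and 1054, 1054 and 1200 in EN. The groups overlapped, and EN replicate 3 was the highest library. Averaged over 6 libraries, miR-126a-3p stood at 1076 CPM, rank 72 of 584 known rows, above 87.7 percent of them. The median known row stood at 7.02 CPM. The most abundant, miR-22-3p, was 75.6 times higher than miR-126a-3p.

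The rows next above miR-126a-3p in mean level were miR-9a-5p (1269 CPM) and miR-7a-5p (1199 CPM), which are typical of neurons and neuroendocrine cells, and miR-196b-5p (1110 CPM), which is encoded in a Hox cluster. Next below were miR-3596c (1075 CPM), miR-155-5p (1060 CPM), known from immune cells, and miR-15b-5p (1021 CPM). The 6 libraries of miR-3596c spread from 809 to 1433 CPM and those of miR-126a-3p from 1007 to 1200 CPM, so these neighbours do not differ beyond their spread.

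**Figure D1:**
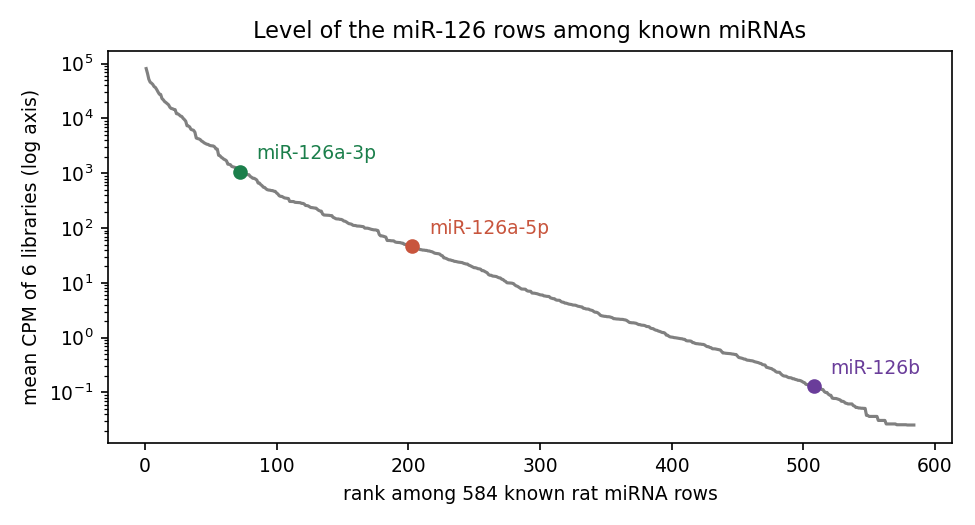
Mean level over 6 libraries (CPM, log axis) against rank for 584 known rat miRNA rows (line), with the 3 miR-126 rows as points. MiR-126a-3p sits at rank 72, miR-126a-5p at rank 203 and miR-126b at rank 508.

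MiR-126a-5p, the less abundant arm, was counted 429, 356 and 378 times in EC and 172, 172 and 130 times in EN. Its levels were 66.3, 56.8 and 57.7 CPM in EC and 31.8, 39.3 and 28.5 CPM in EN. All EN libraries lay below all EC libraries, with EN replicate 3 the lowest. Its mean over 6 libraries was 46.7 CPM, rank 203 of 584 known rows. MiR-126a-3p stood 23.0 times higher. The nearest known rows in level were miR-139-5p (49.3 CPM), miR-30e-3p (47.4 CPM) and miR-1249 (47.1 CPM) above, and miR-221-5p (45.7 CPM), miR-335 (45.2 CPM) and miR-342-5p (43.9 CPM) below. The levels of miR-221-5p, the minor arm of another endothelial miRNA, ranged from 38.8 to 53.3 CPM, inside the range of miR-126a-5p from 28.5 to 66.3 CPM.

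MiR-126b was barely detected. It had 4, 0 and 1 counts in EC and 0 in each EN library. A count of 0 allows up to 3 counts, which is 0.559 to 0.663 CPM, before TMM scaling, in the EN libraries. The 5 EC counts do not stand clear of that limit, so no fold is given, and a difference was not detectable at this depth. MiR-126b did not pass the filter on low counts, so 2 of the 3 members were tested.

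**Figure D2:**
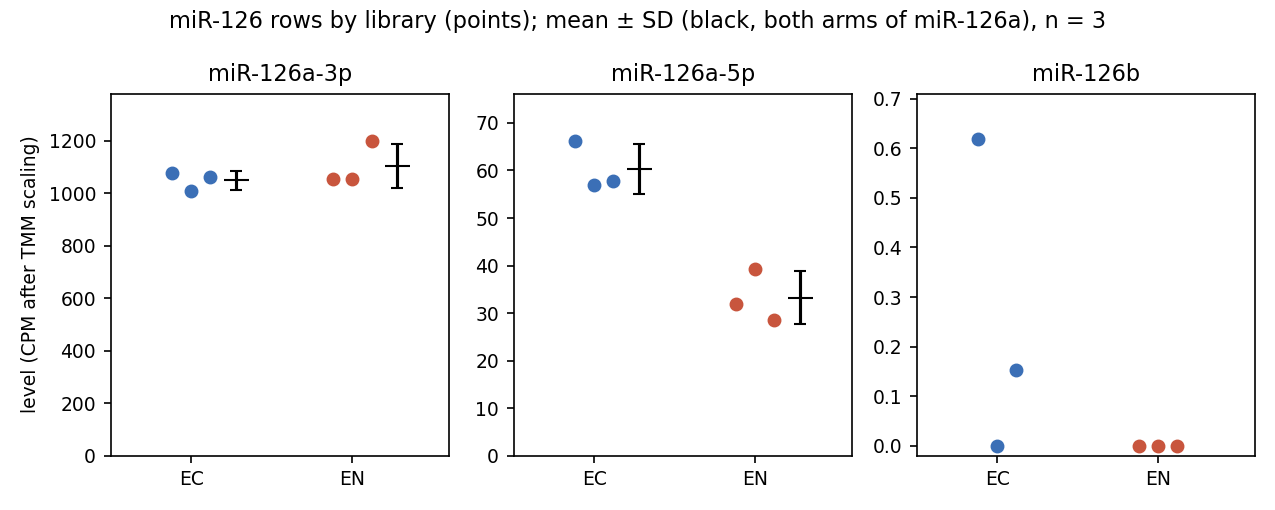
Level in CPM (vertical axes, separate scales) of miR-126a-3p, miR-126a-5p and miR-126b in 3 EC and 3 EN libraries (points), with mean ± SD beside each group for both miR-126a arms. The EN points of miR-126a-5p lie between 28.5 and 39.3 CPM, below all EC points, while those of miR-126a-3p overlap the EC points.

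The comparison of EN with EC asks whether miR-126 differs between both groups of PC12 libraries. The major arm had about the same share of miRNA counts in both, and the minor arm was lower in EN. MiR-126a-5p fell from 60.3 ± 5.20 CPM in EC to 33.2 ± 5.55 CPM in EN (SD, n = 3). On the log2 scale this is -0.86 (SE 0.17). By the quasi-likelihood test of edgeR, with p-values adjusted by Benjamini-Hochberg over 628 rows, it passed with adjusted p = 0.0471, close to the threshold of 0.05. In that test 3.98 percent of all rows were called, 1.91 percent lower and 2.07 percent higher. Among rows tested, groups lay apart without overlap in 29.6 percent, and with EN lower in 14.6 percent. MiR-126a-5p ranked 18th by p among the 25 rows called.

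The call on miR-126a-5p did not hold in most smaller sets of libraries. The adjusted p by edgeR was 0.115 when EC replicate 1 was left out, 0.127 for EC replicate 3, 0.0687 for EN replicate 1, 0.0896 for EN replicate 2 and 0.161 for EN replicate 3. Without EC replicate 2 it was 0.0477. The log2 fold change stayed negative in all 6 of these fits, from -0.96 to -0.76. Calls over all rows, 25 of 628 with every library, changed in these fits too. They were 10 of 635 without EC replicate 1, 39 of 636 without EC replicate 2 and 8 of 637 without EC replicate 3. Without EN replicate 1, 2 and 3 they were 34 of 652, 3 of 655 and 2 of 656. MiR-126a-5p also narrowly missed the threshold by limma-voom, with adjusted p = 0.0548. It passed by DESeq2 with adjusted p = 0.000711, where 11.3 percent of rows with an adjusted p were called. Of the 106 other rows whose mean level lay within a factor of 2 of that of miR-126a-5p, 4 were called, 2 of them lower in EN, and 5 had a more negative log2 fold change.

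The 3p arm averaged 1049 ± 37.0 CPM in the EC libraries and 1103 ± 84.4 CPM in the EN libraries (SD, n = 3). Its log2 fold change was 0.07 (SE 0.11), with adjusted p = 0.731 by the same edgeR test. An approximate 95 percent interval from the SE runs from -0.14 to 0.28 on the log2 scale. The median of all rows was 0.02. This interval is for levels relative to other miRNAs and does not show that the arm acted alike in both groups.

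The direction of the 3p arm depended on what it was scaled to. The authors' deposited RPM divides by a larger library total. In RPM, miR-126a-3p stood at 354, 330 and 328 in EC and at 285, 255 and 307 in EN, without overlap. How many of all rows lay apart on this scale was not counted. On this scale miR-126a-5p stood at 21.8, 18.6 and 17.8 RPM in EC and at 8.60, 9.51 and 7.28 RPM in EN. MiRNA counts made up 30.9 to 32.6 percent of that total in EC and 25.0 to 26.9 percent in EN, so every row is shifted down in EN by this divisor. With library totals implied by RPM in edgeR, the median of all rows moved to -0.30. There the log2 fold change was -0.26 for miR-126a-3p (SE 0.13, adjusted p = 0.197) and -1.20 for miR-126a-5p (SE 0.17, adjusted p = 0.00874). In that fit 16.3 percent of rows were called, and 14.2 percent were called lower. Relative to the median of all rows, miR-126a-3p thus lay close to 0 and miR-126a-5p well below it on both scales.

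**Figure D3:**
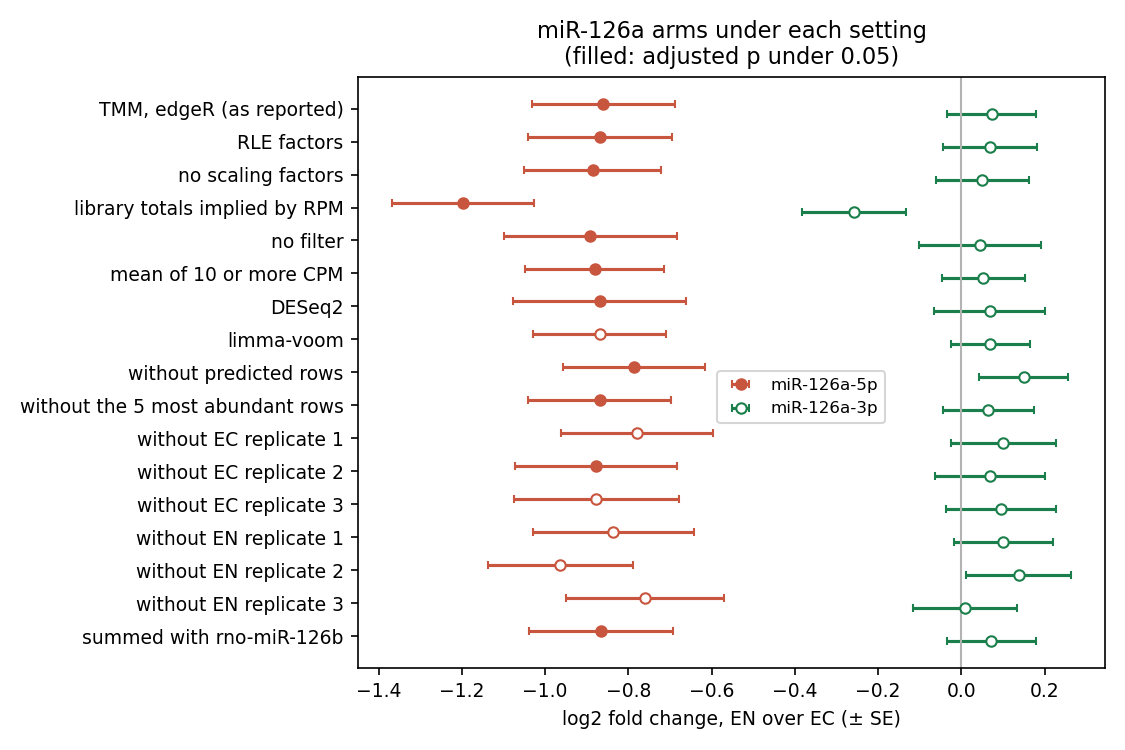
Log2 fold change of EN over EC (horizontal axis, ± SE) for both miR-126a arms under each setting (vertical axis) but the replicate block, which is not drawn. Points are filled where the adjusted p is under 0.05. MiR-126a-5p lies between -1.20 and -0.76 throughout, and miR-126a-3p lies above 0 in each setting shown but the one with library totals implied by RPM, at -0.26.

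Since the antisense gene could take reads of the 5p arm, the rows were also summed. With miR-126b added, miR-126a-5p changed by -0.87 on the log2 scale (SE 0.17, adjusted p = 0.0472 by edgeR), close to the value without it. The sum of all 3 rows, which is mostly the 3p arm, changed by 0.03 (SE 0.11, adjusted p = 0.869) and did not pass. As a share of all miRNA counts, the 3 rows together made up 0.112 ± 0.00346 percent in the EC libraries and 0.113 ± 0.00922 percent in the EN libraries (SD, n = 3). The exact permutation test, two-sided, gave p = 0.9, where 3 libraries in each group can give no p below 0.1.

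The ratio of arms compares 5p with 3p inside each library and needs no scaling factor. The 5p arm took 5.79, 5.34 and 5.16 percent of miR-126a counts in EC and 2.93, 3.60 and 2.32 percent in EN. The 95 percent Wilson intervals, which cover counting error only, ran from 4.67 percent upwards in EC and up to 4.16 percent in EN. No EC interval thus met an EN interval, and how many other pairs of arms separate in this way was not counted. Summed over the tested rows, replicates within a group differed far beyond counting error (chi-square per degree of freedom from 221 to 755). Abundant rows that vary weigh most in this sum, so it does not measure the spread of miR-126a itself. For miR-126a the EC intervals overlapped, but in EN those of replicate 2 (from 3.11 percent) and replicate 3 (up to 2.75 percent) did not meet. The intervals can therefore be narrower than the spread among libraries. There were 16.3, 17.7 and 18.4 reads of 3p for each read of 5p in EC, and 33.1, 26.8 and 42.1 in EN. The EN libraries differed more from each other than the EC libraries did. The 5p share averaged 5.43 ± 0.327 percent in the EC libraries and 2.95 ± 0.640 percent in the EN libraries (SD, n = 3). Its exact permutation test, two-sided, gave p = 0.1, the lower limit.

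**Figure D4:**
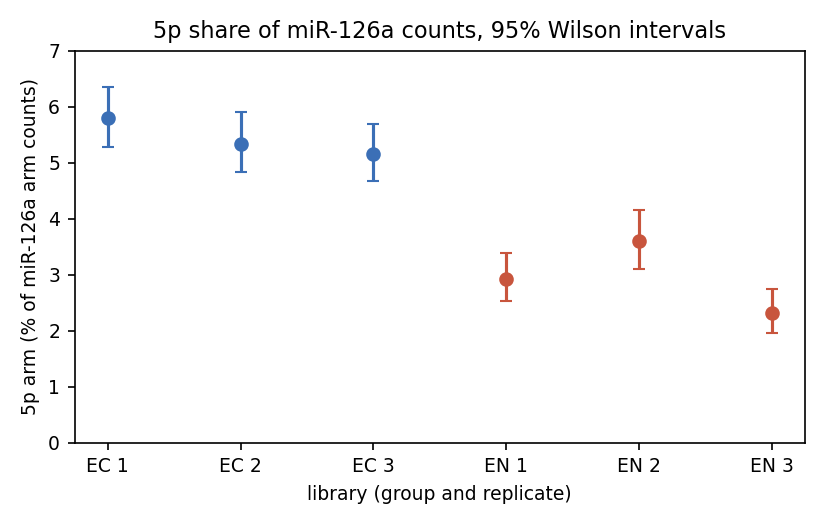
Share of the 5p arm in miR-126a counts (percent) in each of 6 libraries, with 95 percent Wilson intervals for counting error as bars. The EC libraries lie between 5.16 and 5.79 percent and the EN libraries between 2.32 and 3.60 percent.

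After adjustment over all pairs of arms, this difference in arm use did not pass. The mean log2 ratio of 5p to 3p was -4.12 in EC and -5.05 in EN, a difference of -0.93 (SE 0.21), with adjusted p = 0.0639 by limma with Benjamini-Hochberg adjustment over 107 pairs of arms. The pairs called made up 5.61 percent, or 6 pairs, and miR-126a came 7th by p. Thus the 5p arm passed a test of its own level while the test of its difference from the 3p arm did not pass. The median absolute difference over all pairs was 0.38, and miR-126a had the 16th largest. Of the 107 pairs, 56 had a lower ratio in EN, and the median was -0.02. MiR-126a was among the more 3p-dominated pairs, 13th from the lowest mean ratio.

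**Figure D5:**
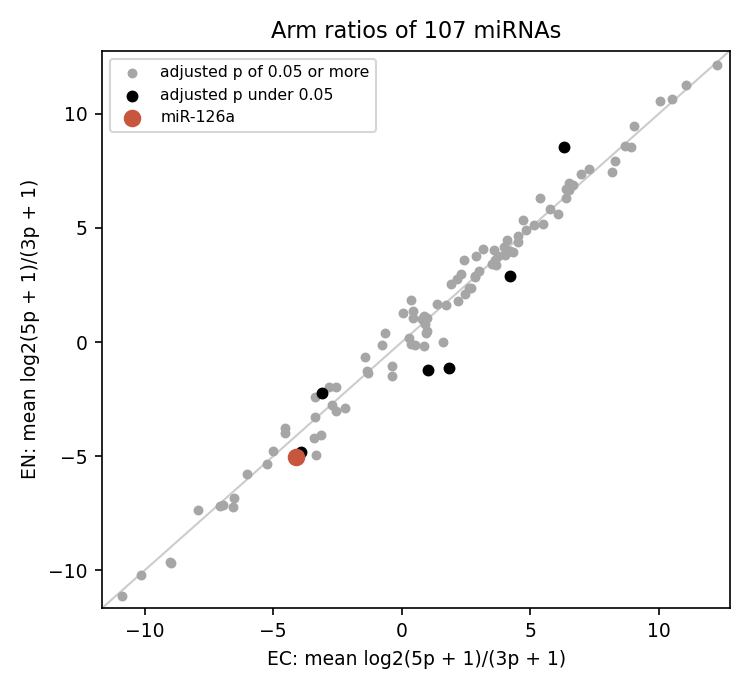
Mean log2 ratio of the 5p to the 3p arm, with 1 count added to each, in EC (horizontal axis) and EN (vertical axis) for 107 miRNAs, with the diagonal as the line of equal ratio. MiR-126a, at -4.12 and -5.05, lies below the diagonal, and 6 pairs, drawn in black, had an adjusted p under 0.05.

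Of the 107 less abundant arms of these pairs, 1 was called higher and 3 lower in EN by edgeR, and these 3 are miR-126a-5p itself, let-7i-3p and miR-338-3p. Called arms made up 3.74 percent of them, near the 3.98 percent of all rows, and their median log2 fold change was -0.12. Of the 107 more abundant arms, 2 were called higher and 4 lower, with a median of -0.09. Among endothelial clusters, the arm ratio of miR-23a differed by -0.70 (SE 0.19, adjusted p = 0.123), that of miR-27a by 0.23 (SE 0.22, adjusted p = 0.596) and that of miR-221 by -0.21 (SE 0.22, adjusted p = 0.609) by limma with Benjamini-Hochberg adjustment.

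Other miRNAs often described in endothelial cells stood both above and below miR-126 in level. Of 36 rows of that list, all tested, 18 stood above miR-126a-3p in mean level. The 4 most abundant were far above it. MiR-222-3p, which represses the receptor Kit, was 61.6 times higher, miR-24-3p 41.0 times, miR-23a-3p 34.2 times and miR-99b-5p 31.3 times. These miRNAs are also common outside endothelium. Of the 36, miR-23a-3p had a log2 rise of 0.49 (SE 0.08) and miR-222-3p one of 0.48 (SE 0.07), miR-24-2-5p changed by -0.88 (SE 0.15), and 33 did not pass edgeR's test. The 3 called rows are 8.33 percent of the list, beside 3.98 percent of all rows, and the median log2 fold change of the list was -0.09, beside 0.02 for all rows. With library totals implied by RPM, 13 of 35 were called lower and 0 higher, beside 14.2 percent of all rows called lower. There miR-222-3p and miR-23a-3p, at 0.15 and 0.16, did not pass. Leaving out EN replicate 2 or EN replicate 3 gave 0 calls on the list by edgeR. Leaving out EC replicate 3 gave 1, and leaving out EC replicate 2 gave 5. Over all rows these fits called 3 of 655, 2 of 656, 8 of 637 and 39 of 636, in that order.

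Against these neighbours miR-126 was set within each library. The log2 ratio of the summed miR-126 rows to the 4 rows of miR-221 and miR-222 was -5.77 ± 0.0937 in EC and -6.22 ± 0.0585 in EN (SD, n = 3). All EN libraries lay below all EC libraries (two-sided exact permutation p = 0.1). How many rows lie apart as ratios to this divisor was not counted. The 29.6 percent of rows apart in CPM is for single rows in either direction and gives no background for a ratio. By edgeR the summed miR-126 rows changed by 0.03 and the divisor's main row, miR-222-3p, by 0.48. MiR-222-3p itself lay apart in CPM, at 55273 ± 1797 in EC and 77347 ± 3539 in EN (SD, n = 3). A lower ratio here need not mean a lower level of miR-126. For miR-126a-3p alone the difference in this ratio was -0.42, also without overlap. The ratio to the 6 rows of miR-23a, miR-27a and miR-24 was -6.54 ± 0.189 in EC and -6.48 ± 0.0946 in EN, with overlap (two-sided exact permutation p = 0.7). For miR-126a-5p alone, the difference in this log2 ratio was -1.36 against miR-221 and miR-222 and -0.84 against the miR-23a, miR-27a and miR-24 rows, each with an exact permutation p of 0.1, two-sided. With miR-24-3p alone as the divisor of the latter ratio, the difference was -0.47, the groups overlapped and the two-sided exact permutation p was 0.2. That divisor spread widely in EC, at 50900 ± 16077 CPM, beside 37312 ± 375 CPM in EN (SD, n = 3).

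Rows of other cell types show what stood beside miR-126 in these cells. The 10 rows of neuroendocrine and neuronal miRNAs together held 2380 to 2918 CPM in EC and 2405 to 2916 CPM in EN, nearly all of it miR-9a and miR-7a. Of the 7 tested rows 0 passed, with a median log2 fold change of -0.40. Beside 3.98 percent called of all rows, a count over so few rows says little about the list. Some defining members of that list were almost absent, miR-375-3p at 2.70 CPM and the neuronal miR-124-3p at 0.492 CPM. The muscle miR-206-3p, the most abundant of 5 muscle rows, averaged 11.2 ± 15.4 CPM in the EC libraries and 1.45 ± 0.312 CPM in the EN libraries (SD, n = 3), and 0 of the 5 reached the test. Its counts ran from 5 to 187 over all libraries. Within EC the 5 muscle rows together spread from 1.76 to 30.6 CPM, so the EC mean describes no typical library. The liver miR-122-5p stood at 7.96 ± 1.90 and 12.1 ± 3.36 CPM, without passing, with adjusted p = 0.293 by edgeR's test.

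MiR-126 also occurs in blood cells, and mesenchymal cells accompany endothelium. MiR-126a-3p was 8.95 times the most abundant blood cell row, miR-150-5p, and 6.38 times the most abundant mesenchymal row, miR-199a-3p. Where 3.98 percent of all rows were called, 2 of 7 blood cell rows were tested and 1 passed. This was miR-451-5p, of red cell precursors, which rose from 8.10 ± 2.60 to 23.3 ± 6.26 CPM (SD, n = 3) but passed in 0 of the 6 fits with 1 library left out, with adjusted p by edgeR from 0.0513 to 0.131. Summed, the 7 rows held 94.5 to 128 CPM in EC and 157 to 179 CPM in EN, with miR-223-3p at 0.378 CPM, miR-144-3p at 0.0617 CPM and miR-486 at 0.272 CPM. In the authors' RPM these sums overlapped, at 31.0 to 41.9 in EC and 39.9 to 45.6 in EN. Of 6 mesenchymal rows 3 were tested and 0 passed, too few to set beside the 3.98 percent of all rows, with a median log2 fold change of -0.07. Their sum was 164 to 186 CPM in EC and 214 to 222.05 CPM in EN, or 50.7 to 61.1 and 51.8 to 60.0 RPM, with miR-143-3p at 1.30 CPM and miR-145-5p at 0.519 CPM. The blood cell and mesenchymal sums lay apart in CPM (two-sided exact permutation p = 0.1 each, the lower limit) and overlapped in RPM. In CPM, 29.6 percent of single rows tested lay apart too. No row of these 5 lists was at 0 in all libraries, and their part in the values of miR-126 was not tested. In bulk RNA, fewer cells that carry a miRNA and less of it per cell cannot be told apart. Whether miR-126 reads came from PC12 transcripts or from RNA taken up was not tested. Every library is labelled EC or EN, with none of PC12 outside these groups and none of exosomes, so these sources cannot be told apart here.

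The arms of miR-126a did not vary together over the 6 libraries, with a Pearson r of their log2 CPM of -0.57. All such values are descriptions over 6 libraries, which share the split into EC and EN. Among 274 other known rows of 10 CPM or more, those most like miR-126a-5p were let-7i-3p (r = 0.996), miR-151-5p (r = 0.980), miR-106b-5p (r = 0.979) and miR-28-5p (r = 0.970), where the median r was 0.165. Let-7i-3p is the passenger arm of a let-7 family member, and miR-106b belongs to a paralog of the miR-17-92 cluster. Their log2 fold changes of EN over EC were -2.30 (SE 0.33), -0.33 (SE 0.09), -0.85 (SE 0.14) and -0.60 (SE 0.10). Since these rows were picked for following miR-126a-5p over the same libraries, their negative sign comes with the choice and is no separate result. MiR-151-5p did not pass edgeR's test (adjusted p = 0.0880).

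For miR-126a-3p, the most similar rows were miR-6324 (r = 0.911), miR-93-5p (r = 0.880), miR-3075 (r = 0.866) and miR-219a-1-3p (r = 0.792), beside a median r of -0.07. Of these, miR-93-5p, from the miR-106b cluster, was the 1 with a level above that of miR-126a-3p, at 3023 CPM, and the other 3 stood between 10.9 and 21.0 CPM. By edgeR the adjusted p of these 4 rows lay between 0.345 and 0.695.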

How the data were processed

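Counts of mature miRNAs from 6 PC12 libraries were used. The authors deposited whole-number read counts per row and, beside them, RPM values. The authors' group means of counts (another kind of value) and RPM, also deposited, were not used. Each deposited RPM value equals the count over 1 library total, which the miRNA counts do not fill. HISAT2 2.0.5 and Rnor 6.0 are named, per the submitters' processing notes. The sources used here do not give the counting program, the strand rule or the handling of multiply matching reads.

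Rows were filtered by filterByExpr, scaled by TMM and tested with edgeR 4.0.16 (quasi-likelihood, robust) in R 4.3.3, over 628 rows with Benjamini-Hochberg adjustment. SE is the absolute log2 fold change over the square root of F. Arm ratios, log2((5p + 1)/(3p + 1)), were tested with limma 3.58.1 in pairs with a mean of at least 20 counts in both arms. Single values used two-sided exact permutation tests (scipy 1.17.1). DESeq2 1.42.0, limma-voom, other scalings and filters, a replicate block and each library left out were alternatives. The edgeR test and the limma test of arm ratios were first run on simulated data, and the other tests and alternatives were not.

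The members and lists were chosen with earlier results of these data known. Named rows are the members, the 3 known rows next to each tested member in level, the 4 most correlated with it, called rows and the most abundant rows of each list. Further low rows of the lists and arm ratios of endothelial clusters were named after their values were seen. Of 584 known rows, 530 matched a RefSeq mature sequence. RefSeq's GRCr8 assembly differs from Rnor 6.0, so no coordinates are given.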

Additional observations from a re-analysis of the deposited data

How the results depend on the processing

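MiR-126a-5p kept a negative log2 fold change in all 17 alternatives run and passed in 10 of them. It missed the threshold at -0.87 by limma-voom, at -0.87 with a replicate block (adjusted p = 0.119), and in 5 of 6 fits without 1 library, which ranged from -0.96 to -0.76. MiR-126a-3p passed in none of its 17 alternatives and reversed to -0.26 with library totals implied by RPM, as the sum of the 3 rows did to -0.30, since that divisor shifts all rows. Without 1 library the sum ranged from -0.0248 to 0.0949. The arm ratio stayed negative without passing in all 13 alternatives (adjusted p from 0.0529 to 0.224). Over all rows the 25 calls (13 higher, 12 lower) became 101 (13 higher, 88 lower) with totals implied by RPM, 44 without a filter, 70 by DESeq2, 16 by limma-voom, 2 with the replicate block and 2 to 39 without 1 library. The 3 endothelial list calls became 5 (2 higher, 3 lower) without scaling factors or at a mean of 10 CPM, 5 without a filter (3 higher) or predicted rows (4 higher), 13 with totals implied by RPM, 8 by DESeq2, 0 with the block and 0 to 5 without 1 library. Calls over all rows were 34 of 628 without scaling factors and 37 of 374 at a mean of 10 CPM. They were 24 of 380 without predicted rows. Called arm ratios became 3 at a minimum mean count of 100, 0 with the block and 1 to 13 without 1 library. The ratio to the miR-23a, miR-27a and miR-24 rows moved from 0.06 to 0.43 with miR-24-3p alone as the divisor. Beyond changed divisors and fewer libraries, their cause was not tested. Same-numbered libraries correlated in their deviations at 0.086, -0.039 and 0.015, so the replicate number was not taken as a pairing, and 3 libraries (EC replicate 2, EC replicate 3 and EN replicate 2) had their highest value with another number. MiR-126b entered only the fit without a filter (adjusted p = 0.5004), since its 5 counts fell under every other filter, and depth limits it.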
